A study of Mus musculus with 24 samples.

Results

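The response of control mouse embryonic fibroblasts to the treatment labelled Dexa was measured in 6 mRNA sequencing libraries of a series of 24. The 3 libraries with Dexa were compared with 3 libraries without it, and all 6 came from wild-type cells that had received siCTRL, the control small interfering RNA, and DMSO. The other 18 libraries cross siCTRL or siCop1, directed against the ubiquitin ligase component Cop1, with DMSO or KL001, a compound that stabilises the clock repressors called cryptochromes, each without or with Dexa, in groups of 3. The controls therefore also carry siCTRL and DMSO. The labels do not spell Dexa out, and genes known to respond to glucocorticoids were read first. The sources used here do not give the dose, the exposure time and the vehicle of Dexa, the passage of the cells or the number of embryos and cultures behind the libraries. The p-values rest on the spread between libraries of a group, estimated over all 24 libraries of the series. Because nothing says that replicates came from separate cultures, this spread may be technical.

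Glucocorticoids act through the glucocorticoid receptor, a ligand-activated transcription factor of the nuclear receptor family. Bound to hormone, the receptor leaves its chaperone complex, enters the nucleus and binds DNA, often as a dimer on a palindrome called the glucocorticoid response element, and it can also meet other factors such as AP-1 and NF-kB at their own sites. In fibroblasts it is known for raising feedback regulators such as Fkbp5 and Tsc22d3 and for restraining inflammatory and matrix-degrading genes. The question here is which other pathways and gene classes rose or fell in the control cells.

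Libraries held 23373824 to 27875023 counts, and 20066 to 20869 genes had a count. In both groups replicate 1 stood apart: it differed from replicates 2 and 3 by a chi-square of 4.958 to 5.953 per degree of freedom, against 1.783 and 1.962 between replicates 2 and 3. Values are CPM, a gene's counts scaled to a common library size by the TMM method, listed in the order of replicates 1, 2 and 3, and n = 3 in each group. A gene is called changed, higher or lower where the p of edgeR's quasi-likelihood test, adjusted over the 14772 genes tested by the method of Benjamini and Hochberg, was below 0.05. Fold changes are differences of log2 values, with Dexa minus without, followed by their standard error (SE). All members of the fibroblast marker list were expressed, at a summed 55400 to 58810 CPM without and 53610 to 54480 CPM with Dexa, although Dcn and Lum, markers of mature fibroblasts, were near 3.48 and 0.962 CPM without Dexa.

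Dexa changed 3957 of the 14772 genes tested (26.8%), of which 1881 were higher (12.7%) and 2076 lower (14.1%). Most of these changes were small, with a median of 1.244-fold among the higher and 1.199-fold among the lower genes. The large changes were mostly increases: 319 genes rose at least 2-fold (2.16% of those tested) and 106 fell at least 2-fold (0.718%). At 4-fold or more there were 111 higher and 8 lower genes, at 8-fold 45 and 2, and at 16-fold 19 and 0. The genes at least 2-fold higher went from 0.5701% to 1.648% of all counts, and the genes at least 2-fold lower from 0.5171% to 0.2389%. The larger number of lower calls was not stable. With 1 library left out, higher calls were more numerous in 5 of 6 fits: 1762 against 1611 and 1765 against 1628 without replicates 2 and 3 of the group without Dexa, and 1893 against 1567, 1903 against 1772 and 1849 against 1734 without replicates 1, 2 and 3 of the Dexa group. Without replicate 1 of both groups, an alternative tried after the data had been seen, 1824 genes were higher and 1507 lower.

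**Figure D1:**
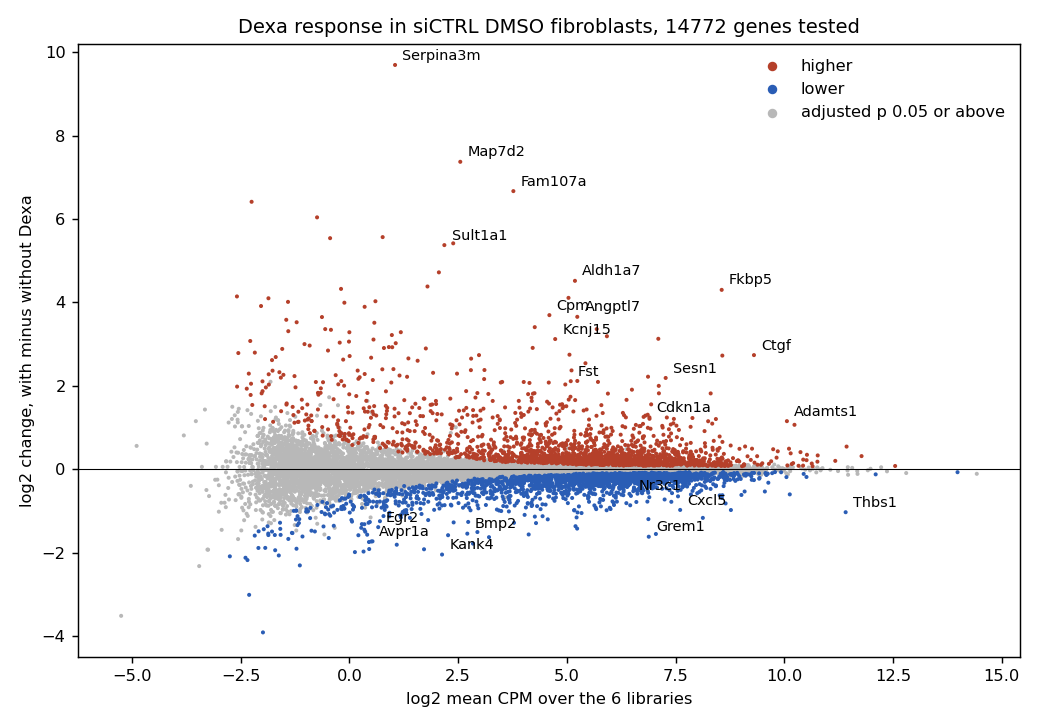
Each point is a gene, with the log2 of its mean CPM over the 6 libraries on the horizontal axis and its log2 change with Dexa on the vertical axis; red genes were higher, blue genes lower, and grey genes had an adjusted p of 0.05 or above. Increases reach much further from 0 than decreases (111 against 8 genes at 4-fold or more), and 2 tested genes without a count in these libraries are not drawn.

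The share of genes that changed rose with expression, from 8.08% of the 2289 genes under 1 CPM to 36.8% of the 4098 genes over 64 CPM. Of the genes at least 2-fold higher, 92 were under 1 CPM and 39 over 64 CPM. By gene type, 29.3% of protein-coding genes changed, against 9.29% of long non-coding RNAs and 3.69% of pseudogenes. In 5317 genes (36%) the 3 libraries of a group lay entirely above the 3 of the other. The genes named below were selected for a change past the test, groups that did not overlap and a large size within their list, except for the classic genes and for those named through a difference from siCop1 cells, so their values describe the response and are no separate evidence for it.

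All 17 classic glucocorticoid genes changed, against 26.8% of all genes tested. The highest was Fkbp5, the co-chaperone that lowers the receptor's hormone affinity, at 37.3, 35.4 and 36.5 CPM without Dexa and 727, 715 and 714 CPM with Dexa (log2 change 4.30, SE 0.036, adjusted p 2.39e-35). Pdk4, the kinase that shuts pyruvate dehydrogenase, was at 3.499, 2.82 and 3.54 CPM without Dexa and 32.03, 35.8 and 37.4 CPM with Dexa (log2 change 3.41, SE 0.087, adjusted p 3.14e-23). Both genes had tight libraries with no overlap between groups. The smallest increases were those of Dusp1, a phosphatase of MAP kinases, with a log2 change of 0.93 (SE 0.049), Nfkbia, which holds NF-kB in the cytoplasm, with 0.88 (SE 0.044), and Ddit4, an inhibitor of mTOR signalling, with 0.49 (SE 0.043). The exception was Angptl4, a secreted inhibitor of lipoprotein lipase, which fell from 40, 39.5 and 38.3 CPM to 26.7, 23.7 and 25.4 CPM (log2 change -0.63, SE 0.052, adjusted p 4.71e-11).

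In the receptor's own axis 6 of 17 tested genes changed (35.3%, against 26.8% of all genes tested), 3 higher and 3 lower. The lower count was 5 with the trend against transcript length and GC content removed, a setting tried only after the data had been seen. Nr3c1, which encodes the glucocorticoid receptor, was at 98.1, 113 and 114 CPM without Dexa and 61.6, 74.5 and 72.3 CPM with Dexa (log2 change -0.64, SE 0.077, adjusted p 1.19e-06). Its lowest library without Dexa lay above its highest with Dexa, and in both groups replicate 1 was the lowest. Hsd11b2, the enzyme that inactivates natural glucocorticoids, rose from 2.42, 2.57 and 3.297 CPM to 11.1, 9.74 and 9.45 CPM (log2 change 1.87, SE 0.13, adjusted p 5.46e-13). The receptor and the enzyme that inactivates its hormone thus changed in opposite directions.

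Beyond the classic genes, the largest increases included genes that were almost silent without Dexa. Serpina3m, a secreted serine protease inhibitor, had 0 counts in the 3 libraries without Dexa and 4.165, 3.903 and 4.344 CPM with Dexa. Against 3 counts summed over the group without Dexa, taken as an approximate upper limit for an observed 0 by counting error alone, it was 106-fold higher. This is not a strict bound on the fold. Its neighbour on chromosome 12, Serpina3n, an inhibitor known as an acute phase protein, was at 0.361, 0.337 and 0.238 CPM without Dexa and 7.43, 6.67 and 5.78 CPM with Dexa (log2 change 4.38, SE 0.24, adjusted p 5.19e-15). These genes have close copies, and how shared reads were assigned is not stated in the sources. Map7d2, a microtubule-binding protein gene at chrX:159414572-159498757, plus strand in GRCm38, was at 0.0721, 0.0421 and 0.0794 CPM without Dexa and 11.6, 11.4 and 11.9 CPM with Dexa (log2 change 7.37, SE 0.23, adjusted p 2.68e-21). Fam107a, a stress-responsive actin-binding protein gene at chr14:8296274-8318023, minus strand, was at 0.433, 0.126 and 0.199 CPM without Dexa and 28.2, 24.9 and 28.1 CPM with Dexa (log2 change 6.67, SE 0.16, adjusted p 4.91e-24). Each of these genes was near the detection limit in every library without Dexa, so their folds rest on a few counts in the denominator.

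Hif3a, a member of the hypoxia-inducible factor family that restrains the others, was at 0.0361, 0.126 and 0.0397 CPM without Dexa and 3.15, 3.25 and 3.59 CPM with Dexa (log2 change 5.57, SE 0.34, adjusted p 2.34e-14). Dpep1, a membrane dipeptidase that cleaves leukotriene D4, was at 0.325, 0.126 and 0.238 CPM without Dexa and 11.2, 9.43 and 10.1 CPM with Dexa (log2 change 5.42, SE 0.25, adjusted p 3.17e-16). Clca3a1, of the family of calcium-activated chloride channel regulators, was at 0.433, 0.2105 and 0.238 CPM without Dexa and 8.48, 7.63 and 7.97 CPM with Dexa (log2 change 4.72, SE 0.23, adjusted p 1.74e-16). All 3 went from barely detected to clearly detected in every library. The gene Cpm, whose symbol stands for the membrane-bound carboxypeptidase M and not for the unit, was at 4.11, 2.65 and 3.54 CPM without Dexa and 42.8, 47.2 and 45 CPM with Dexa (log2 change 3.70, SE 0.085, adjusted p 2.68e-24). Angptl7, a secreted angiopoietin-like protein, was at 5.48, 5.35 and 5.84 CPM without Dexa and 78.8, 66.7 and 64.5 CPM with Dexa (log2 change 3.65, SE 0.09, adjusted p 5.68e-21). Trim67, a ubiquitin ligase of the TRIM family, and Bmp8a, a bone morphogenetic protein, had log2 changes of 3.895 (SE 0.36) and 3.51 (SE 0.25) and stayed at low levels with Dexa. Zbtb16, a zinc-finger transcription factor of the classic list, rose from 3.499, 3.49 and 3.77 CPM to 54.7, 66.3 and 65.3 CPM.

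Genes were named only where they averaged 1 CPM or more in the 6 libraries, and among these the deepest decreases were smaller than the largest increases. Kank4, a cytoskeletal adaptor, was at 6.49, 6.99 and 7.67 CPM without Dexa and 1.71, 1.84 and 1.55 CPM with Dexa (log2 change -2.05, SE 0.12, adjusted p 1.25e-14). Grin3a, a subunit of NMDA-type glutamate receptors, was at 1.41, 1.73 and 2.105 CPM without Dexa and 0.3503, 0.439 and 0.518 CPM with Dexa (log2 change -1.99, SE 0.3, adjusted p 3.45e-06). Shisa2, which retains Wnt and FGF receptors in the endoplasmic reticulum, was at 5.38, 5.35 and 4.89 CPM without Dexa and 1.71, 1.18 and 1.196 CPM with Dexa (log2 change -1.92, SE 0.17, adjusted p 1.12e-10). In each of these genes all libraries with Dexa lay far below the lowest library without it. Nptx1, a neuronal pentraxin, was at 10.9, 11.4 and 11 CPM without Dexa and 3.46, 3.11 and 3.07 CPM with Dexa (log2 change -1.78, SE 0.12, adjusted p 1.11e-12). Rassf9 (log2 -1.81, SE 0.21), a Ras association domain protein, Prdm8 (-1.58, SE 0.22), a histone methyltransferase family member, and Slfn2 (-1.98, SE 0.27), a Schlafen gene with close copies, were also among the lowest. Evi2a, which lies inside another gene on the opposite strand, had a log2 change of -1.63 (SE 0.08), and whether the counting used strand is not stated in the sources.

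**Figure D2:**
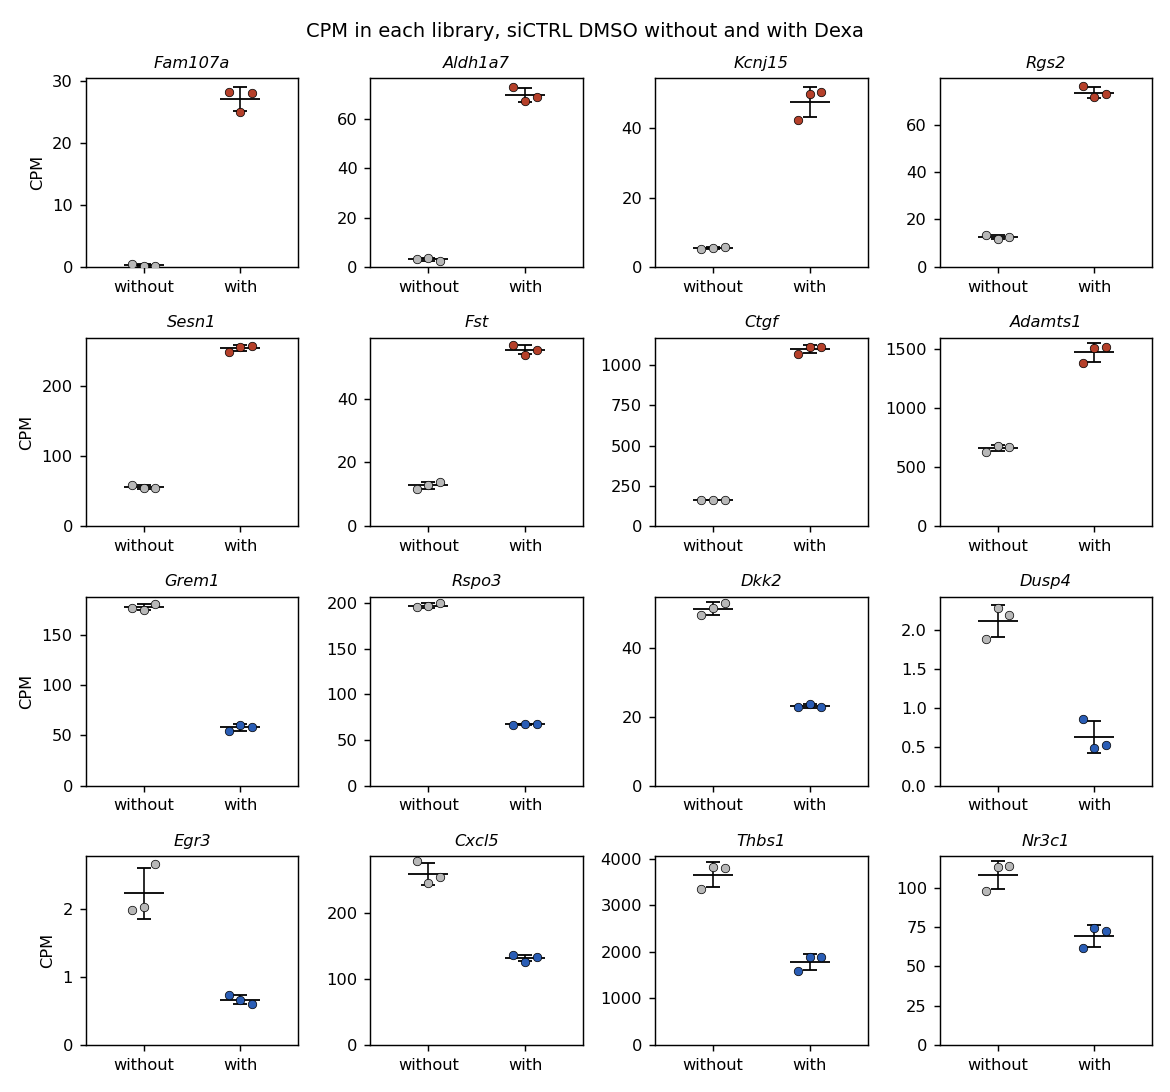
CPM of 16 genes in each of the 6 siCTRL DMSO libraries, without Dexa in grey and with Dexa in red where higher or blue where lower; points are libraries, and the bar and whiskers are the mean and SD of 3 libraries. In all 16 genes the groups do not overlap, for example 164 to 165.2 CPM without against 1071 to 1113 CPM with Dexa for Ctgf. The genes were drawn from named genes selected for this trait, which 36% of all genes tested share.

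The gene lists described next hold 1463 distinct genes in 44 lists. In 39 of the lists the share of tested members that changed was above the 26.8% of all genes, and in 5 it was at or below it. The members of the lists, the classic one included, were chosen with earlier results of these data known, which can raise these shares. More calls were also made in well expressed genes, as given above. The part of either in the shares was not tested, so the shares describe the lists only. Over all genes tested 12.7% were higher and 14.1% lower, and the median log2 change was -0.008. The counts of each list are to be read beside these shares.

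**Figure D3:**
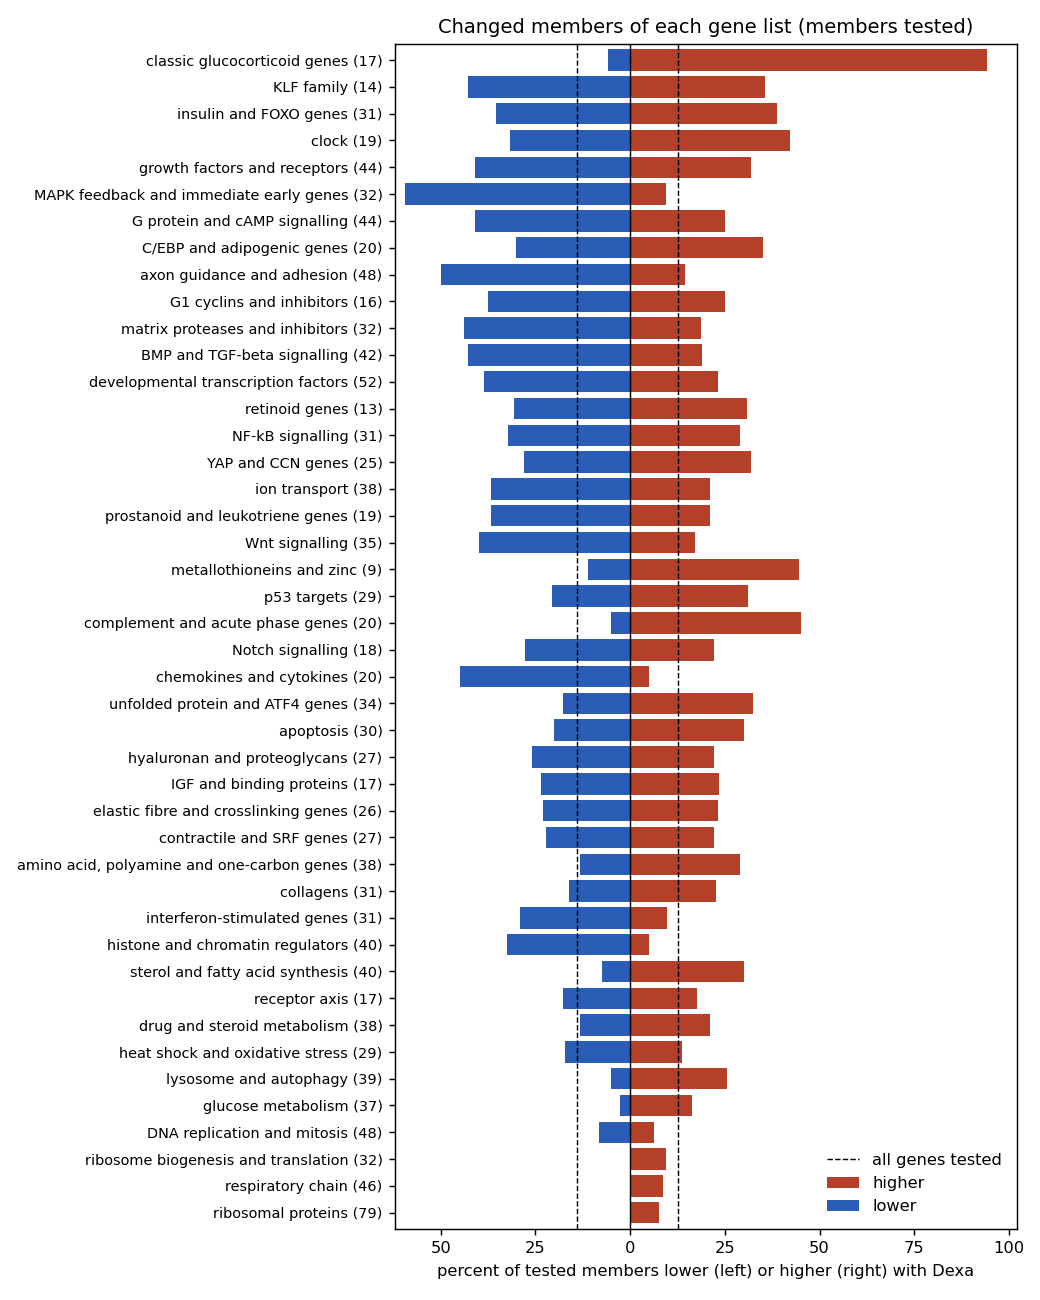
Bars give the percent of tested members of each gene list that were lower (blue, to the left) or higher (red, to the right) with Dexa, with the number of members tested in parentheses; the dashed lines mark all genes tested, 14.1% lower and 12.7% higher. The MAP kinase feedback, axon guidance, chemokine, matrix protease and BMP lists lean to the left, and the complement, metallothionein, sterol and lysosome lists to the right.

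Transcription regulators were read by family. Of 14 tested KLF genes 5 were higher and 6 lower. Klf15, a regulator of amino acid and glucose metabolism, rose from 3.14, 2.27 and 2.86 CPM to 14.6, 14.2 and 14.6 CPM (log2 change 2.38, SE 0.1, adjusted p 1.34e-17). Klf5 had a log2 change of 1.05 (SE 0.11) and the classic gene Klf9 one of 0.97 (SE 0.052), whereas Klf11 (-0.59, SE 0.068), Klf10 (-0.46, SE 0.059), both induced by TGF-beta in many cells, and Klf4 (-0.36, SE 0.05), a pluripotency factor, were lower.

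The C/EBP and adipogenic list was split, with 7 higher and 6 lower of 20 tested. Cebpd and Cebpb, the early factors of fat cell differentiation, rose: Cebpd went from 9.13, 8.25 and 8.54 CPM to 63.3, 55.1 and 55.8 CPM (log2 change 2.75, SE 0.1, adjusted p 3.93e-16) and Cebpb had a log2 change of 0.88 (SE 0.12). Cebpa, the later factor, fell from 10.21, 7.96 and 10.1 CPM to 5.72, 6.14 and 6.34 CPM (log2 change -0.64, SE 0.11, adjusted p 3.19e-05). The early and the late member thus went in opposite directions. Fabp4, a fatty acid carrier of fat cells, rose from 19.7, 17.1 and 15.8 CPM to 58.4, 54.7 and 53.5 CPM (log2 change 1.66, SE 0.065, adjusted p 1.33e-18). It was the only fat cell marker above 0.1 CPM in these libraries, since the other 7 of 8, among them Adipoq and Plin1, were below that level.

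In the clock list 8 of 19 genes were higher and 6 lower, although without replicate 1 in either group 3 were lower. The period genes Per1 and Per2 rose, Per1 from 40.3, 41.8 and 41.8 CPM to 192, 195 and 189 CPM (log2 change 2.22, SE 0.035, adjusted p 2.5e-28) and Per2 by a log2 change of 1.39 (SE 0.077). Nfil3, a repressor of D-box genes, rose from 43.7, 43.8 and 44.6 CPM to 114, 113 and 110 CPM (log2 change 1.35, SE 0.035, adjusted p 5.43e-23). The repressors of the REV-ERB family fell, Nr1d1 by 0.68 (SE 0.052) and Nr1d2 by 0.41 (SE 0.058) on the log2 scale, as did Npas2, a partner of Bmal1, by 0.73 (SE 0.15).

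Of 52 tested developmental transcription factors 12 were higher and 20 lower (median log2 change -0.124). Osr2, a factor of limb and palate mesenchyme, fell from 87.8, 85.7 and 84.7 CPM to 58.8, 52.1 and 49.6 CPM (log2 change -0.69, SE 0.054, adjusted p 1.83e-11). Sox6 and Sox11 had log2 changes of -1.02 (SE 0.16) and -0.62 (SE 0.058), whereas their relative Sox9, the master factor of cartilage, rose from 37.1, 38.6 and 40.8 CPM to 59.5, 60.8 and 59.7 CPM (log2 change 0.63, SE 0.053, adjusted p 6.54e-11). Hand2 (0.76, SE 0.061) and Snai1 (0.62, SE 0.05), a repressor of epithelial genes, were higher too. Among the 22 tested genes whose symbols start with Hox, 0 were higher and 9 lower (median -0.153). This is 40.9% changed, against 26.8% of all genes tested. Of 40 histone and chromatin regulators 2 were higher and 13 lower, and the lower count was 5 without replicate 1 of the Dexa group and 7 without replicate 3 of the group without Dexa. Dnmt3a, a DNA methyltransferase, fell from 67.1, 75.2 and 73.6 CPM to 50.3, 56.7 and 55.8 CPM (log2 change -0.41, SE 0.048, adjusted p 5.75e-08), and Hmga2, an architectural chromatin protein, had a log2 change of 0.29 (SE 0.031).

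Inflammatory genes were read in 5 lists. Of 20 tested chemokines and cytokines 9 were lower and 1 higher (median log2 change -0.362). Cxcl5 and Cxcl1 attract neutrophils. Cxcl5 was at 277, 244 and 254 CPM without Dexa and 135, 126 and 133 CPM with Dexa (log2 change -0.98, SE 0.058, adjusted p 2.98e-12). Cxcl1 was at 27.99, 27.7 and 27.7 CPM without Dexa and 14.6, 12.6 and 15.7 CPM with Dexa (log2 change -0.96, SE 0.074, adjusted p 1.14e-11). Il7, a growth factor of lymphocytes, was at 2.27, 1.6 and 2.62 CPM without Dexa and 0.584, 0.746 and 0.399 CPM with Dexa (log2 change -1.92, SE 0.24, adjusted p 1.53e-07). In all 3 genes every library with Dexa was below every library without it. The exception was Il34, a ligand of the macrophage receptor Csf1r, which rose from 5.55, 4.67 and 5.64 CPM to 10.5, 9.52 and 11.9 CPM (log2 change 1.01, SE 0.094, adjusted p 6.12e-10).

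The NF-kB list was divided, with 9 of 31 higher and 10 lower (median -0.012). Inhibitors and activators did not separate cleanly. Beside Nfkbia, Irak3, a brake on Toll-like receptor signalling (0.78, SE 0.22), and Map3k8, a kinase that activates the ERK pathway (0.69, SE 0.13), were higher. Relb, a subunit of the non-canonical pathway, fell from 24.4, 23.1 and 23.7 CPM to 13.6, 11.6 and 14.03 CPM (log2 change -0.86, SE 0.073, adjusted p 8.77e-11), and the Toll-like receptor Tlr2 had a log2 change of -0.70 (SE 0.046). Nfkbie, another inhibitor of the family, was lower (-0.48, SE 0.091).

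Prostanoid genes changed along the pathway, with 4 higher and 7 lower of 19 tested. Ptgs2, the inducible cyclooxygenase that starts synthesis, fell from 25.6, 25.6 and 26.3 CPM to 13.9, 13.7 and 14.3 CPM (log2 change -0.89, SE 0.067, adjusted p 7.81e-12). Hpgd, which degrades prostaglandins, rose from 13.6, 12.3 and 13.7 CPM to 23.9, 21.8 and 25.1 CPM (log2 change 0.84, SE 0.067, adjusted p 2.72e-11). The receptors Ptgir (-1.32, SE 0.24) and Ptger4 (-0.87, SE 0.17) were lower, whereas the receptor Ptgfr (0.32, SE 0.072) and the prostacyclin synthase Ptgis (0.55, SE 0.068) were higher.

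Of 31 tested interferon-stimulated genes 9 were lower and 3 higher (median -0.186), and 5 were lower in a fit on the compared groups alone or without replicate 2 of the Dexa group. The RNA sensor Ifih1 fell from 9.16, 10.4 and 10.3 CPM to 4.94, 5.83 and 5.62 CPM (log2 change -0.86, SE 0.082, adjusted p 9.12e-10), and Ifit3b, which has close copies, had a log2 change of -1.50 (SE 0.25). Stat2, the transcription factor of the type I interferon response, was higher (0.42, SE 0.046), as were Ifi35 (0.38, SE 0.064) and Samhd1 (0.22, SE 0.03), an enzyme that depletes nucleotides. The complement and acute phase list leaned the other way, with 9 of 20 higher, 7 of them at least 2-fold, and 1 lower (median 0.224). Lcn2, an iron-siderophore carrier of the classic list, rose from 0.253, 0.842 and 1.03 CPM to 5.18, 4.39 and 3.67 CPM (log2 change 2.66, SE 0.45, adjusted p 0.000133), and the single lower gene was the complement protease C1s1 (-0.20, SE 0.051). Of 23 tested genes whose symbols start with Serpin 8 were higher and 1 lower (39.1% changed, against 26.8% of all genes tested).

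The MAP kinase feedback and immediate early genes had the largest share of lower members among the 44 lists, 19 of 32, with 3 higher (median -0.286). Egr3 and Egr2, zinc-finger factors induced by growth factors within minutes, fell. Egr3 was at 1.98, 2.02 and 2.66 CPM without Dexa and 0.7395, 0.658 and 0.598 CPM with Dexa (log2 change -1.73, SE 0.23, adjusted p 6.92e-07). Egr2 was at 2.2, 2.69 and 1.99 CPM without Dexa and 0.856, 0.921 and 0.837 CPM with Dexa (log2 change -1.39, SE 0.22, adjusted p 7.48e-06). Dusp4, a nuclear phosphatase of ERK, was at 1.88, 2.27 and 2.19 CPM without Dexa and 0.856, 0.482 and 0.518 CPM with Dexa (log2 change -1.75, SE 0.22, adjusted p 1.43e-07). All 3 were lowly expressed in every library, and their groups did not overlap. The 3 higher genes were all inhibitors of the same pathway, but the list holds many such inhibitors, and Dusp4, which fell, is one of them. Errfi1, which blocks the EGF receptor, rose from 27.5, 28.9 and 28.3 CPM to 249, 250.3 and 241 CPM (log2 change 3.13, SE 0.042, adjusted p 4.06e-30). Dusp5 and Dusp7, phosphatases of ERK, had log2 changes of 0.72 (SE 0.074) and 0.34 (SE 0.048).

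Among growth factors and receptors 14 of 44 tested genes were higher and 18 lower. Ligands went both ways. Tgfa, a ligand of the EGF receptor, rose from 10.9, 10.5 and 10.7 CPM to 26.5, 30.2 and 30.3 CPM (log2 change 1.44, SE 0.071, adjusted p 3.6e-16), while Hbegf, another ligand of that receptor, fell from 23.7, 23.7 and 24.1 CPM to 14.3, 15.2 and 15.3 CPM (log2 change -0.68, SE 0.052, adjusted p 1.04e-11). Figf, which encodes the lymphatic growth factor VEGF-D, rose from 47.8, 44.4 and 45.9 CPM to 115, 112 and 113 CPM (log2 change 1.30, SE 0.035, adjusted p 1.49e-22). Nrp2, a co-receptor for VEGF and semaphorins, fell from 206, 216 and 219 CPM to 114, 132 and 127 CPM (log2 change -0.78, SE 0.054, adjusted p 9e-12). Kitl, the ligand of the Kit receptor, rose by a log2 change of 1.09 (SE 0.061), and Fgf5 had one of -0.99 (SE 0.083). Of the platelet-derived growth factor receptors, which the marker list of fibroblasts holds, Pdgfra rose by 0.97 and Pdgfrb fell by 0.63 on the log2 scale.

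In the BMP and TGF-beta list 18 of 42 tested genes were lower and 8 higher (median -0.132). Ligands and antagonists changed side by side. Grem1, a secreted antagonist of BMPs, was at 177, 176 and 182 CPM without Dexa and 54.5, 60.7 and 58.9 CPM with Dexa (log2 change -1.62, SE 0.047, adjusted p 6.3e-22). Bmp2 was at 10.24, 9.01 and 10.01 CPM without Dexa and 3.31, 3.16 and 3.55 CPM with Dexa (log2 change -1.55, SE 0.11, adjusted p 3.33e-12). Gdf6, a related ligand, had a log2 change of -1.17 (SE 0.18). Bmp8a, the ligand named above, which is not in the list, was higher. Fst, an antagonist that binds activins, rose from 11.8, 12.8 and 13.9 CPM to 56.8, 53.8 and 55.3 CPM (log2 change 2.11, SE 0.055, adjusted p 5.46e-23). Tgfbr3, the co-receptor betaglycan, rose from 86.5, 100.5 and 100.6 CPM to 185, 206 and 199.7 CPM (log2 change 1.04, SE 0.068, adjusted p 5.35e-11), and Id4, a target of BMP signalling, had a log2 change of 1.32 (SE 0.25).

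Wnt genes leaned lower as well, with 14 of 35 tested lower and 6 higher (median -0.209). Rspo3, a secreted amplifier of Wnt signalling, was at 196, 197 and 200 CPM without Dexa and 66.4, 67.8 and 67.5 CPM with Dexa (log2 change -1.55, SE 0.046, adjusted p 9.64e-22). Dkk2, a secreted inhibitor of the Wnt co-receptors, was at 49.7, 51.8 and 53.3 CPM without Dexa and 22.8, 23.8 and 22.8 CPM with Dexa (log2 change -1.16, SE 0.061, adjusted p 1.67e-15). An amplifier and an inhibitor of the pathway thus both fell. Wnt16, a ligand, had a log2 change of -1.25 (SE 0.24), and Cxxc4, an inhibitor that binds Dishevelled and that was named over all genes, one of -1.58 (SE 0.16). The higher genes included Axin2, a target and inhibitor of the pathway, which went from 1.91, 1.98 and 1.79 CPM to 3.93, 4.12 and 3.83 CPM (log2 change 1.06, SE 0.12, adjusted p 3.74e-08). Znrf3, the ligase that removes Wnt receptors, and Lrp5, a co-receptor, had log2 changes of 0.73 (SE 0.089) and 0.69 (SE 0.04).

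In the Notch list 4 of 18 tested genes were higher and 5 lower, the latter 2 in a fit on the compared groups alone and 2 or 3 without any library but replicate 1 of the group without Dexa. Rbpj, the DNA-binding partner of Notch, fell from 38.2, 39.99 and 40.4 CPM to 27.4, 26.9 and 24.4 CPM (log2 change -0.59, SE 0.054, adjusted p 3.84e-10). Its target Hey1 had a log2 change of -0.61 (SE 0.14), whereas Lfng, which modifies Notch receptors, was higher (0.32, SE 0.064).

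The insulin and FOXO list changed in 23 of 31 tested genes, 12 higher and 11 lower. Sesn1, a leucine sensor that restrains mTOR, rose from 58.7, 54.01 and 53.98 CPM to 249, 255 and 257 CPM (log2 change 2.19, SE 0.04, adjusted p 8.63e-27), while its relative Sesn3 fell from 179, 199 and 199.7 CPM to 129, 143 and 136 CPM (log2 change -0.50, SE 0.063, adjusted p 1.47e-06). Irs1, the adaptor of the insulin and IGF receptors, fell from 63.2, 75.5 and 75.2 CPM to 41.5, 44.2 and 42.6 CPM (log2 change -0.74, SE 0.06, adjusted p 1.28e-10). Igf1 itself fell by 0.57 (SE 0.074), Igfbp5, an IGF carrier, by 0.56 (SE 0.083) and Foxo6 by 0.87 (SE 0.13) on the log2 scale. In the IGF and binding protein list 4 of 17 were higher and 4 lower, the former 2 without replicate 1 of both groups. The stanniocalcins, which inhibit cleavage of IGF-binding proteins, split: Stc1 fell from 24.8, 26.9 and 26.5 CPM to 9.77, 8.16 and 8.37 CPM (log2 change -1.57, SE 0.081, adjusted p 1.18e-15) and Stc2 rose by 0.47 (SE 0.055).

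The extracellular matrix was described through its enzymes and its fibres. Of 32 tested proteases and inhibitors 14 were lower and 6 higher (median -0.117). Among the genes whose symbols start with Adamts 4 of 18 were higher and 9 lower (72.2% changed, against 26.8% of all genes tested). Adamts1, an aggrecan- and versican-cleaving protease, rose from 630.3, 682 and 675 CPM to 1383, 1514 and 1522 CPM (log2 change 1.15, SE 0.043, adjusted p 2.18e-17). Its relative Adamts4 fell from 18.9, 20.3 and 19.9 CPM to 13.3, 11.3 and 13.1 CPM (log2 change -0.64, SE 0.067, adjusted p 5.73e-09). Adam12 rose from 8.08, 8.97 and 8.46 CPM to 24.6, 29.1 and 30.1 CPM (log2 change 1.72, SE 0.071, adjusted p 5.08e-18) while Adam19 fell by 0.66 (SE 0.058) on the log2 scale. Plat, the tissue plasminogen activator, fell from 107, 105 and 104 CPM to 59.6, 59.6 and 60.5 CPM (log2 change -0.81, SE 0.036, adjusted p 2.32e-17). Closely related proteases thus changed in opposite directions.

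Collagens moved little, with 7 of 31 tested higher, 5 lower and 0 changed at least 2-fold in either direction. The lower count was 2 or 3 without replicate 2 or 3 of the group without Dexa or without any replicate of the Dexa group. Col12a1, a fibril-associated chain, had a log2 change of 0.33 (SE 0.076), Col6a2 one of 0.22 (SE 0.024) and Col8a2 one of -0.51 (SE 0.12). In the elastic fibre and crosslinking list 6 of 26 were higher and 6 lower. Lox, which crosslinks collagen and elastin, rose from 2179, 2247 and 2328 CPM to 3082, 3350 and 3405 CPM (log2 change 0.54, SE 0.042, adjusted p 1.57e-10). Loxl3 rose from 123, 118 and 118 CPM to 224, 215 and 212 CPM (log2 change 0.86, SE 0.033, adjusted p 7.36e-19). Plod2, a collagen lysyl hydroxylase, and Fbn2, a microfibril protein, were lower with log2 changes of -0.34 (SE 0.043) and -0.42 (SE 0.076). Among 27 proteoglycan and hyaluronan genes 6 were higher and 7 lower. Vcan, the large proteoglycan versican, rose from 243, 277 and 285 CPM to 428, 480.3 and 479 CPM (log2 change 0.78, SE 0.085, adjusted p 7.68e-07), as did the small proteoglycans Prelp (1.09, SE 0.083) and Omd (0.83, SE 0.045).

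The YAP and CCN list was changed in 15 of 25 tested genes, 8 higher and 7 lower. Ctgf, a matricellular protein of the CCN family, was at 165, 165 and 164 CPM without Dexa and 1071, 1113 and 1111 CPM with Dexa (log2 change 2.74, SE 0.037, adjusted p 4.66e-30). Tead4, a DNA-binding partner of YAP, was at 12.3, 12.2 and 12.3 CPM without Dexa and 51.2, 50.1 and 49.2 CPM with Dexa (log2 change 2.03, SE 0.053, adjusted p 5.43e-23). Thbs1, a matricellular thrombospondin, was at 3343, 3834 and 3800 CPM without Dexa and 1588, 1897 and 1883 CPM with Dexa (log2 change -1.03, SE 0.071, adjusted p 9.41e-10). Ctgf and Thbs1 are both described as YAP targets, and they went in opposite directions. Ankrd1, another such target, and Nov, a further CCN protein, fell by 0.66 (SE 0.074) and 0.46 (SE 0.038) on the log2 scale. In the contractile list 6 of 27 genes were higher and 6 lower, the latter 11 with the length and GC trend removed. Smtn (0.43, SE 0.032) and Lmod1 (0.60, SE 0.045), proteins of smooth muscle filaments, were higher, and the transcription factor Srf, which drives such genes, was lower (-0.27, SE 0.048). Heart muscle markers summed to 25.62 to 71.73 CPM without and 7.051 to 107.8 CPM with Dexa, 0 of 9 tested changed, and their part in the contractile counts was not tested.

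Signalling receptors and adhesion molecules were among the lists with many lower members. Of 44 tested genes of G protein and cAMP signalling 18 were lower and 11 higher (median -0.171), 7 of the latter at least 2-fold. Rgs2, which shuts off Gq signalling, rose from 13.3, 11.8 and 12.7 CPM to 76.2, 71.4 and 72.7 CPM (log2 change 2.54, SE 0.05, adjusted p 4.72e-26). The adrenergic receptors Adra1b and Adra2a rose, Adra1b from 6.64, 6.57 and 7.15 CPM to 29.9, 29.2 and 26.3 CPM (log2 change 2.07, SE 0.082, adjusted p 1.61e-18) and Adra2a by a log2 change of 2.60 (SE 0.2). S1pr1, a receptor for sphingosine-1-phosphate, fell from 50.97, 52.4 and 49.6 CPM to 24.8, 25.7 and 24.1 CPM (log2 change -1.04, SE 0.044, adjusted p 7.83e-18), and the vasopressin receptor Avpr1a had a log2 change of -1.73 (SE 0.23).

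In the axon guidance and adhesion list 24 of 48 tested genes were lower and 7 higher (median -0.259). Of the semaphorins, secreted or membrane-bound guidance cues, 6 of 18 tested were lower and 0 higher. The share changed was 33.3%, against 26.8% of all genes tested, of which 14.1% were lower and 12.7% higher. Sema6a (-1.45, SE 0.26) and Sema7a (-1.32, SE 0.24) had the largest decreases among those named, at low levels. Unc5c, a receptor for netrin, fell from 43.6, 47.7 and 52.04 CPM to 22.4, 24.1 and 25.8 CPM (log2 change -0.99, SE 0.086, adjusted p 1.79e-09). Among the higher genes, the integrin chain Itga4, a receptor for fibronectin and VCAM1, rose from 1.804, 1.89 and 1.95 CPM to 7.78, 9.39 and 10.5 CPM (log2 change 2.29, SE 0.12, adjusted p 2.21e-15). Plxna2, a semaphorin receptor, rose by 1.33 (SE 0.071) on the log2 scale.

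Ion transport genes were higher in 8 and lower in 14 of 38. Kcnj15, an inward-rectifier potassium channel, was at 5.27, 5.51 and 5.64 CPM without Dexa and 42.6, 49.9 and 50.6 CPM with Dexa (log2 change 3.12, SE 0.082, adjusted p 6.01e-23). The sodium-potassium-chloride carrier Slc12a2 rose from 92.1, 100.2 and 103 CPM to 180.3, 201 and 208 CPM (log2 change 0.999, SE 0.056, adjusted p 2.11e-13), and the bicarbonate carrier Slc4a4 had a log2 change of 1.27 (SE 0.1). The water channel Aqp5 (-0.72, SE 0.088) and the chloride channel family member Clic5 (-1.16, SE 0.16) were lower. Over all 246 tested solute carrier genes 49 were higher and 47 lower (39.0% changed, against 26.8% of all genes tested). In the metallothionein and zinc list 4 of 9 tested genes were higher and 1 lower (median -0.025). Mt2, a metallothionein, went from 12.9, 11.5 and 11.5 CPM to 119, 102.2 and 106 CPM (log2 change 3.19, SE 0.093, adjusted p 2.39e-17), and the zinc and manganese importer Slc39a8 went from 0.325, 0.379 and 0.596 CPM to 3.503, 3.42 and 3.03 CPM (log2 change 2.93, SE 0.23, adjusted p 1.91e-11). The zinc exporter Slc30a4 was lower (-0.36, SE 0.057).

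Central glucose metabolism changed in few genes, 6 of 37 higher and 1 lower, 18.9% against the 26.8% of all genes, and 0 lower without replicate 1 or 3 of the Dexa group. The 3 largest increases were those of Pdk4, given above, Pdp1 and Pcx. Pdp1, the phosphatase that reactivates pyruvate dehydrogenase, rose from 39.6, 38.8 and 40.8 CPM to 118, 129.6 and 130.2 CPM (log2 change 1.66, SE 0.041, adjusted p 1.3e-23). Pcx, pyruvate carboxylase, rose from 66.9, 67.8 and 65.9 CPM to 173, 163 and 160.1 CPM (log2 change 1.31, SE 0.04, adjusted p 2.93e-21). A kinase and a phosphatase of the same enzyme were both higher.

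Of 40 sterol and fatty acid genes 12 were higher, 3 lower and 0 changed at least 2-fold. Abca1, the cholesterol exporter, had a log2 change of 0.50 (SE 0.088), the desaturase Scd2 one of 0.31 (SE 0.031), and Mylip, the ligase that degrades the LDL receptor, one of -0.37 (SE 0.045). Amino acid and polyamine genes were higher in 11 and lower in 5 of 38, the latter 10 with the length and GC trend removed and 3 without replicate 1 of the Dexa group. Glul, glutamine synthetase of the classic list, went from 11, 11.5 and 11 CPM to 59.7, 57.2 and 56.3 CPM (log2 change 2.37, SE 0.059, adjusted p 1.47e-23). Prodh, which breaks down proline, rose from 1.55, 1.56 and 1.51 CPM to 5.02, 5.92 and 4.07 CPM (log2 change 1.69, SE 0.16, adjusted p 8.87e-10), and Srm, spermidine synthase, rose from 106, 105 and 99.5 CPM to 173, 162 and 164 CPM (log2 change 0.68, SE 0.038, adjusted p 6.65e-15).

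Drug and steroid metabolism was changed in 13 of 38 tested genes (34.2%, against 26.8% of all genes tested), 8 higher and 5 lower. Of the higher genes 4 rose at least 2-fold, and the lower count was 3 without replicate 2 of the Dexa group. The phenol sulfotransferase Sult1a1 was at 0.144, 0.295 and 0.199 CPM without Dexa and 10.1, 8.55 and 7.97 CPM with Dexa (log2 change 5.38, SE 0.21, adjusted p 1.48e-18). Aldh1a7 was at 3.102, 3.49 and 2.54 CPM without Dexa and 72.9, 67.4 and 68.99 CPM with Dexa (log2 change 4.52, SE 0.082, adjusted p 6.18e-27). Its close neighbour and relative Aldh1a1, an aldehyde dehydrogenase that makes retinoic acid, was at 3.86, 3.37 and 5.84 CPM without Dexa and 34.6, 31.7 and 32.04 CPM with Dexa (log2 change 2.91, SE 0.39, adjusted p 1.31e-05). In all 3 genes every library with Dexa was several-fold above every library without it, and reads of the neighbouring Aldh1a genes may be split between them. Retinoid genes were higher in 4 and lower in 4 of 13. Rdh10, which makes retinaldehyde, fell from 31.8, 31.9 and 31.8 CPM to 19.1, 19.6 and 19.9 CPM (log2 change -0.70, SE 0.048, adjusted p 5.55e-13), while Dhrs3, which reverses that step, rose from 44.6, 43.4 and 42.6 CPM to 78.3, 73.5 and 72.4 CPM (log2 change 0.78, SE 0.049, adjusted p 1.21e-13). Cyp26b1, which degrades retinoic acid, rose by 0.95 (SE 0.078) and the binding protein Crabp2 fell by 0.44 (SE 0.064) on the log2 scale.

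Cell cycle genes were read as G1 regulators and as replication machinery. Of 16 tested G1 genes 4 were higher and 6 lower. Cdkn1a, the kinase inhibitor p21, rose from 72.7, 69.4 and 70.5 CPM to 169.6, 165 and 169 CPM (log2 change 1.24, SE 0.039, adjusted p 6.27e-21). Cdkn2b, the inhibitor p15, fell from 144, 130.4 and 135 CPM to 96.99, 94.4 and 95.6 CPM (log2 change -0.52, SE 0.038, adjusted p 3.07e-12). Ccnd2, a D-type cyclin, fell from 800.5, 942 and 925 CPM to 563, 650 and 628 CPM (log2 change -0.54, SE 0.064, adjusted p 1.48e-06), and Ccnd3 had a log2 change of 0.31 (SE 0.042). Of 48 genes of DNA replication and mitosis 3 were higher and 4 lower (14.6%), a lower count of 1 without replicate 3 and of 8 without replicate 1 of the group without Dexa, and of 2 without replicate 1 of the Dexa group; the higher count was 5 without replicate 3 of the group without Dexa. Rrm2, a subunit of ribonucleotide reductase, had a log2 change of 0.31 (SE 0.037), Ccne2 one of 0.44 (SE 0.075) and Kif23, a motor of cytokinesis, one of -0.25 (SE 0.047).

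Of 29 p53 targets 9 were higher and 6 lower. Perp, a desmosomal protein, rose from 8.91, 6.904 and 8.898 CPM to 28.8, 28.6 and 29.7 CPM (log2 change 1.81, SE 0.08, adjusted p 2.24e-17). Perp is also a marker of squamous epithelium, whose 10 markers summed to 26.42 to 32.79 CPM without and 45.93 to 54.38 CPM with Dexa, with 2 of 10 higher, Perp and the epithelial factor Trp63, and none of the keratins of the list changed. Their part in the rise of Perp was not tested. Pmaip1, the death protein Noxa, rose by a log2 change of 1.55 (SE 0.15), and the death receptor Fas had one of -0.45 (SE 0.11). Among apoptosis genes 9 of 30 were higher and 6 lower, the latter 3 without replicate 1 in either group. The survival gene Bcl2l1 rose from 50.1, 48.5 and 46.4 CPM to 69.9, 72.5 and 70.3 CPM (log2 change 0.55, SE 0.046, adjusted p 5.54e-11), while its relative Bcl2 fell by 0.44 (SE 0.067), and Bnip3, a mitophagy receptor, rose by 0.85 (SE 0.057) on the log2 scale.

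In the unfolded protein and ATF4 list 11 of 34 were higher, 7 in a fit on the compared groups alone, and 6 lower. The lower genes named were stress factors of the ATF4 arm. Ddit3, the factor CHOP, fell from 117, 114 and 109 CPM to 91.9, 87.01 and 85.05 CPM (log2 change -0.37, SE 0.036, adjusted p 1.97e-09). Trib3 and Atf3 had log2 changes of -0.38 (SE 0.036) and -0.38 (SE 0.061). The largest increase of the list was that of the transcription factor Cebpb, named above (0.88, SE 0.12). Herpud1 (0.26, SE 0.029) and Dnajc3 (0.25, SE 0.038), which act in quality control at the endoplasmic reticulum, were higher too. Of 29 heat shock and oxidative stress genes 4 were higher and 5 lower (31.0% changed, against 26.8% of all genes tested). Gclc, the first enzyme of glutathione synthesis, rose from 35.6, 37.2 and 35.99 CPM to 75.2, 75.5 and 74.3 CPM (log2 change 1.05, SE 0.042, adjusted p 2.01e-18), while the cystine importer Slc7a11 (-0.37, SE 0.078), Gsr (-0.23, SE 0.039), which recycles glutathione, and Txnrd1 (-0.28, SE 0.028) were lower. Lysosome and autophagy genes were higher in 10 and lower in 2 of 39 (30.8% changed, against 26.8% of all genes tested). The lower count was 0 in a fit on the compared groups alone or without replicate 3 of the Dexa group, and 1 without its replicate 2. Plekhf1 (0.78, SE 0.045) and the protease Ctsl (0.22, SE 0.031) were among the higher.

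The large housekeeping groups had the smallest shares of changed genes among the 44 lists. Of 79 ribosomal proteins 6 were higher and 0 lower (7.59%), of 32 genes of ribosome biogenesis and translation 3 and 0, and of 46 respiratory chain genes 4 and 0. These counts were not stable. With 1 library left out, 1 to 13 ribosomal proteins were higher, moving by over 1.5 times for each library but replicate 2 of the group without Dexa, and with no filter on low counts 20 were. Of the respiratory chain genes 0 were higher when scaled by library totals alone or without replicate 3 of the group without Dexa, 13 without its replicate 1, and 1 and 8 without replicates 1 and 2 of the Dexa group. The ribosome biogenesis count was 0 in a fit on the compared groups alone. Rpl10a had a log2 change of 0.21 (SE 0.047).

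Promoter sequences were then read for motifs of the receptor and of other factors, because the palindrome is the receptor's textbook binding sequence. Binding data were not used here. RefSeq promoters of GRCm38.p6 were matched by symbol to 10917 tested genes (73.9%), as 13974 windows of 300 bases, 250 before and 50 after a start site. The full palindrome, AGAACA and TGTTCT with any 3 bases between them, searched on both strands like the motifs that follow, stood in 1 of these genes, Sgk1, an ion transport kinase of the classic list that rose from 144, 138 and 138 CPM to 490, 491 and 499.9 CPM (log2 change 1.82, SE 0.031, adjusted p 1.85e-27). The match begins 189 bases before the start site and is in capitals in the upstream stretch, chr10:21993640-21993889 on the plus strand.
Sgk1: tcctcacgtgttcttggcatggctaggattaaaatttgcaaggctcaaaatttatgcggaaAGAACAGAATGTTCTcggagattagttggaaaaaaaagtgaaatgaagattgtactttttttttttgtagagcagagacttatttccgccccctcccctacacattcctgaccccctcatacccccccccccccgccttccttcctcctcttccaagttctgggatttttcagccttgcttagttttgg

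The looser palindrome, GNACA and TGTNC with any 3 bases between them, which also covers the full one, stood in 49 of the 10917 genes (0.449%). It stood in 13 of 220 genes at least 2-fold higher (5.91%), in 0.407% of the 1227 higher by less, in 27 of 7866 not changed (0.343%), in 0.26% of the 1538 lower by less and in 0 of 66 at least 2-fold lower. A match is a description of letters and not of binding, and a window without a match says nothing about the receptor. The 13 genes are shown with 8 bases on each side of the match, which is in capitals and is the full palindrome for Sgk1. Apart from Sgk1, Map7d2, Fam107a, Serpina3n and Mt1 they were chosen for the match after their values were seen.
Map7d2: acaggacaGGACACAGTGTTCacagtctg
Fam107a: ggtggcttGGACATGGTGTTCtgagtctc
Serpina3n: agcacagaGCACAGCTTGTCCatgccagc
Serpina3c: agcacagaGCACAGCTTGTCCatgccagc
Slc10a6: cttccctaGAACACGATGTGCcactgtcg
Gm13415: caaggaggGCACATGATGTACaaggacag
Map3k6: gaatagggGCACAGGCTGTTCcggaagtg
Car14: gggaatgaGAACACGGTGTCCtgggaggg
Mt1: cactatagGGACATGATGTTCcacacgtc
Trim63: ctggctctGAACAGTCTGTTCttgtttac
Suox: ggacgcctGCACAAACTGTACacgtcacg
Amy1: agatcacgGCACAGCCTGTTCtctcccat
Sgk1: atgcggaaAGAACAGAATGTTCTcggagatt

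These stretches lie at chrX:159459127-159459155, chr12:104406622-104406650, chr2:24440230-24440258, chr4:133240629-133240657, chr8:94178987-94179015, chr4:134314904-134314932 and chr10:21993693-21993723 on the plus strand, and at chr14:8309877-8309905, chr12:104153927-104153955, chr5:103629546-103629574, chr3:95904890-95904918, chr10:128673944-128673972 and chr3:113577946-113577974 on the minus strand. Start sites here are those of the RefSeq promoters, and those of Map7d2 and Fam107a lie inside the gene spans given above, not at their ends. The match begins before the start site in all of the stretches but that of Map7d2, where it begins 10 bases after it. The nearest to the start site on the upstream side was that of Suox, 46 bases before it, and the farthest that of Car14, 225 bases before it. Serpina3n and Serpina3c, which are close copies on chromosome 12, hold the same 29 bases. Suox, which encodes sulfite oxidase, was at 23.8, 23.7 and 23.6 CPM without Dexa and 63.4, 65.6 and 63.01 CPM with Dexa (log2 change 1.43, SE 0.048, adjusted p 2.42e-20). Mt1, a metallothionein of the classic list, was at 60.2, 55.2 and 50.8 CPM without Dexa and 246, 214 and 205 CPM with Dexa (log2 change 1.999, SE 0.078, adjusted p 1.81e-14). Trim63, a ubiquitin ligase of muscle wasting, was at 0.902, 0.463 and 0.357 CPM without Dexa and 1.83, 2.37 and 2.07 CPM with Dexa (log2 change 1.83, SE 0.26, adjusted p 2.02e-06). The libraries of the groups did not overlap in these 3 genes. The upstream stretches of Fam107a, chr14:8309780-8310029 on the minus strand, and of Mt1, chr8:94178839-94179088 on the plus strand, show the match in its wider setting.
Fam107a: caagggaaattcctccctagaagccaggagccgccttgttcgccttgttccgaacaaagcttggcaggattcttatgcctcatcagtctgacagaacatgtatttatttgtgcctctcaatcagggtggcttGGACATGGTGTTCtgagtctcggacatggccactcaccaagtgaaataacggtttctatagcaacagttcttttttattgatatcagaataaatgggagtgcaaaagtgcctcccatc
Mt1: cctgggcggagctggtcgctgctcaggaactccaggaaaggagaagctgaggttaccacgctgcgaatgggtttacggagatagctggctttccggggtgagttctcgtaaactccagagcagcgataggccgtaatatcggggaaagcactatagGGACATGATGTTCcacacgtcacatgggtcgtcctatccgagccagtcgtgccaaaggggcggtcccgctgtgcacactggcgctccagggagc

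The AP-1 site TGANTCA stood in 6.61% of all genes with a promoter, in 12.7% of those at least 2-fold higher and in 15.2% of those at least 2-fold lower. The E-box CACGTG, which clock factors bind, stood in 11.7% of all, in 13.6% of the former and in 9.09% of the latter. The cAMP response element TGACGTCA stood in 3.47%, 2.27% and 1.52% of the same groups, and the core of the interferon response element, GAAA and GAAA with any 2 bases between them, in 3.53%, 4.55% and 6.06%. The lowest class holds 66 genes, so 10 matches of the AP-1 site and 4 of the interferon element stand behind its shares.

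**Figure D4:**
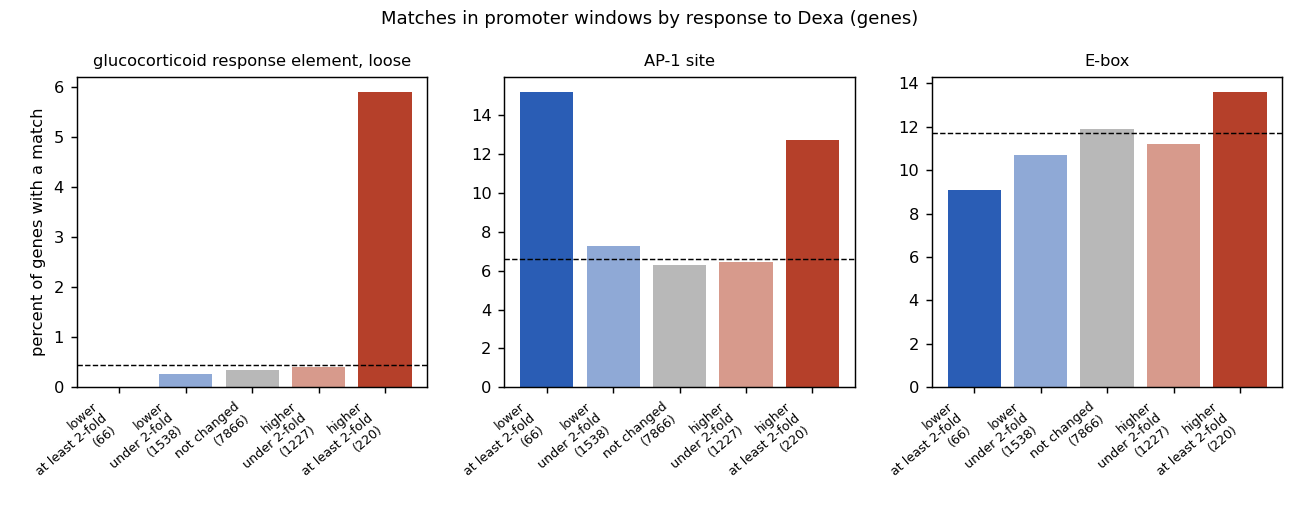
Bars give the percent of genes with a motif match in a promoter window, by their response to Dexa, with the number of genes in parentheses; the dashed line is the share of all tested genes with a promoter, and the vertical axes differ between panels. The loose receptor palindrome is at 5.91% in genes at least 2-fold higher and 0.449% over all genes, and the AP-1 site is above its 6.61% in both outer classes.

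The response was set beside those in other cells of the series, which share no library with it. In siCTRL cells with KL001 3952 genes changed with Dexa (26.8%), and 2920 of them were among the 3957 changed in DMSO, 73.8% of that list and 73.9% of the other, all in the same direction. Of the 425 genes changed at least 2-fold in DMSO, 368 changed in the same direction with KL001. Over all genes tested Pearson's r of the log2 changes was 0.794, a description across genes, which are not independent. Among strongly changed genes some values lay close to each other, such as Fkbp5 with 4.30 in DMSO and 4.33 with KL001, Kcnj15 with 3.12 and 3.21 and Grem1 with -1.62 and -1.71. Others lay further apart, such as Serpina3n with 4.38 and 2.49, Hif3a with 5.57 and 7.48 and Dpep1 with 5.42 and 4.61, all of which were low without Dexa. Tested as an interaction, the difference between the responses passed in 0 genes in edgeR and in 3 in DESeq2, with 888 genes (6.01%) at an unadjusted p below 0.05 in edgeR and a smallest adjusted p of 0.0995. With no filter on low counts 133 genes passed.

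In siCop1 cells with DMSO 3496 genes changed (23.7%), and 2710 of them were among the 3957, 68.5% of that list and 77.5% of the other, 2707 in the same direction. Here the difference itself passed the test in 99 genes (0.67%), and in 230 with no filter on low counts. Of the 99 genes, 91 had changed in siCTRL cells and 8 had not. Among the 91 the response was larger in siCTRL than in siCop1 cells in 79 and smaller in 12. Keeping only genes called in siCTRL cells favours a larger response there, so this split is a description and no test. Fst was at a log2 change of 2.11 in siCTRL and 1.33 in siCop1 cells, an interaction of -0.78 (SE 0.08, adjusted p 4.36e-07). Errfi1 was at 3.13 and 2.25, an interaction of -0.88 (SE 0.057, adjusted p 2.28e-11). Dkk2, the Wnt inhibitor that fell in siCTRL cells, was at 0.04 in siCop1 cells with an adjusted p of 0.625, an interaction of 1.20 (SE 0.079, adjusted p 2.28e-11). Fkbp5 itself was at 4.30 and 3.54, with an interaction of -0.76 (SE 0.048, adjusted p 2.06e-11).

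**Figure D5:**
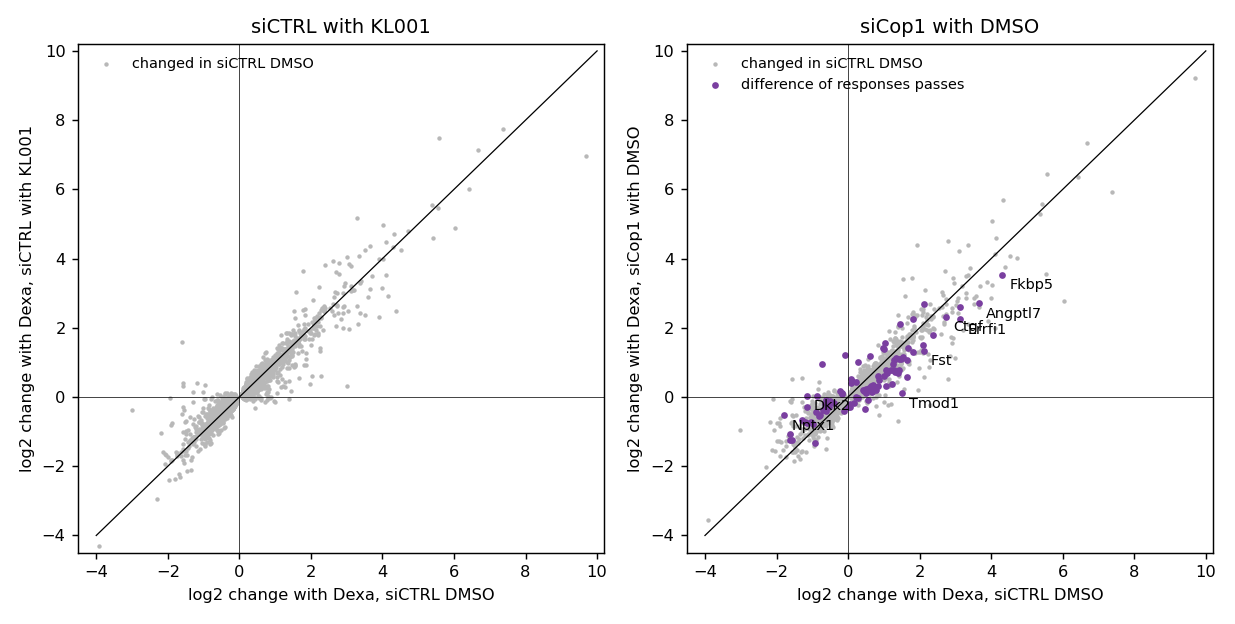
Log2 changes with Dexa in siCTRL DMSO (horizontal axis) against siCTRL with KL001 (left panel) and siCop1 with DMSO (right panel), for the genes changed in siCTRL DMSO in grey; purple points are the 99 genes whose responses differed between siCTRL and siCop1 in the interaction test, and the line marks equal changes. Most purple points lie closer to 0 on the vertical than on the horizontal axis, and the left panel holds 0 such genes.

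In bulk RNA fewer cells of a type and less RNA per cell cannot be told apart, so markers of other cell types were read in the same 6 libraries. Skeletal muscle factors Myod1 and Myog, the glial factor Sox10 and the endothelial gene Cldn5 were at 0 counts in all 6. Other skeletal muscle markers were detected at low levels, such as Acta1, Ckm and Tnnt3 at means of 2.79, 2.65 and 1.61 CPM over the 6 libraries. That list summed to 6.313 to 10.56 CPM without and 4.382 to 12.36 CPM with Dexa, with 0 of 4 tested changed. Neural and glial markers summed to 259.9 to 285 CPM without and 409.8 to 439.5 CPM with Dexa, of which Map2 alone, a microtubule protein, went from a mean of 255.9 to 409.8 CPM. Macrophage markers summed to 6.185 to 7.901 and 5.679 to 7.364 CPM with 0 of 5 changed, and endothelial markers to 2.777 to 3.605 and 1.514 to 2.279 CPM with the receptor Tek lower. Simple and airway epithelium markers summed to 34 to 42.16 and 23.94 to 29.45 CPM with Krt19 lower. Their part in the changes of other genes was not tested.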

How the data were processed

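Polyadenylated RNA of 24 libraries was sequenced as single reads from a stranded mRNA kit, per the labels' protocols. The authors deposited raw counts per gene for GRCm38, and the submitters' processing notes name bcl2fastq 1.8.4, STAR 2.4.5a, Picard 1.126, featureCounts of Subread 1.4.6-p3 and DESeq2. The sources used here do not give the annotation, the strand setting or the handling of shared reads.

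The deposited counts of all 24 libraries entered 1 edgeR fit (4.0.16, R 4.3.3) with 1 mean per group, so the 8 groups share the estimate of the spread, with TMM scaling, robust quasi-likelihood tests and genes kept by filterByExpr (minimum count 10, minimum total 15). Of 47480 genes, 28837 had a count and 14772 were tested. Interactions were contrasts of the same fit. CPM were computed from the counts, and SE is the size of the unshrunk log2 change over the square root of F. The statistics were tested on simulated counts.

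The members and the 44 gene lists were chosen with earlier results of these data known. Named genes were the classic list, the 15 largest changes in each direction over all genes, up to 3 per list and direction, and the largest interactions, with groups that did not overlap and a mean of at least 1 CPM. Promoters came from RefSeq for GRCm38.p6. Alternatives were RLE scaling, library totals alone, no filter on low counts, DESeq2 1.42.0, a replicate block, a fit on the compared groups alone and each library left out. Removal of length and GC trends and leaving out replicate 1 of both groups were chosen after seeing the data. At 23373824 to 27875023 counts per library, genes under 1 CPM rest on few counts.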

Additional observations from a re-analysis of the deposited data

Results flagged for a closer look

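For 24 of the named genes the response to Dexa differed between siCTRL and siCop1 cells with DMSO in the interaction test of edgeR, over all 14772 genes tested, where 99 genes (0.67%) passed. The value given is the log2 change in siCop1 minus that in siCTRL cells. In genes that rose in siCTRL cells it was negative, and the rise was smaller, for Angptl7 (-0.94), Errfi1 (-0.88), Stc2 (-0.81), Fst (-0.78), Fkbp5 (-0.76), Klf5 (-0.74), Ptgis (-0.63), Glul (-0.58), Kcnj15 (-0.52), Ctgf (-0.42), Ddit4 (-0.26), Figf (-0.24), Pdp1 (-0.24) and Nfil3 (-0.22). Of these genes Ptgis was at -0.09 in siCop1 cells (adjusted p 0.42) and Stc2 fell there, at -0.35 (adjusted p 2.41e-06). It was also negative for Tmod1 (-1.41), an actin filament capping protein, whose call was lost with each of 5 libraries left out. In genes that fell in siCTRL cells it was positive for Nptx1 (1.26), Dkk2 (1.20), Clic5 (0.86), Evi2a (0.57), Grem1 (0.37), Rspo3 (0.32) and S1pr1 (0.30). It was positive as well for Foxa1 (1.30), a pioneer transcription factor that was not called in siCTRL cells (-0.09, adjusted p 0.781), and Dtx4 (0.57), a ligase of the Notch pathway.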

How the results depend on the processing

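Of 249 named genes 248 changed, and 220 kept their call and direction in every alternative run; 28 lost the call in at least 1, 14 of them under a setting other than a left-out library, and 0 values reversed. The number of changed genes was 3945 with RLE scaling, 4003 with library totals alone, 3846 with no filter on low counts, 3584 in DESeq2, 3140 in a fit on the compared groups alone, 4574 with the length and GC trend removed, 3331 without replicate 1 of both groups, and 3373 to 3990 with each library left out. The share of higher genes among the changed ranged from 44.1% to 54.8%. For the difference of responses between DMSO and KL001 the count of 0 became 133 with no filter, 3 in DESeq2, 7 with the trend removed and 0 to 3 with each library left out (2 without replicate 1 of siCTRL KL001 with Dexa and 3 without replicate 2 of siCTRL KL001 without Dexa). For the difference between siCTRL and siCop1 the count of 99 became 230 with no filter, 206 with the trend removed and 71 to 107 with each library left out. The cause of these moves was not tested. Same-numbered libraries of the compared groups correlated at 0.195, -0.144 and 0.11 in their deviations from the group means. Differently numbered ones correlated at -0.295 to 0.232. With so few libraries, these values cannot tell whether same-numbered libraries share more than a number. With a replicate block 3920 genes changed with Dexa, and 97 and 0 differed by siCop1 and by KL001. Log2 changes had a Spearman rho of -0.13 with transcript length and 0.021 with GC content across genes. Depth limits the genes under 1 CPM, of which 8.08% changed.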
